A study of Arabidopsis thaliana with 18 samples.

Results

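The drought response of Arabidopsis thaliana rosette leaves was set against itself in 2 lines that differ in the jasmonate enzyme JAR1. The quantity examined was a difference of differences for each gene, namely drought minus control in JAR1-OE less drought minus control in jar1-11. It was computed from 12 of the 18 libraries of the study, 3 in each of 4 groups, and the other 6 libraries, from wild-type Col-0 (WT), took no part in it. The genes of main interest were those that drought moved in opposite directions in the lines, with an adjusted p under 0.05 for each line's own response and for the difference. This rule found 314 genes among the 17516 tested.

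All plants were 32 days old at harvest, had been watered for 18 days, and had then either been watered further (control) or left without water for 14 days (drought). The line jar1-11 is a JAR1 knockdown from the T-DNA insertion line SALK_034543. JAR1-OE is labelled an overexpression line of JAR1.1 and has an entry of its own in the files for a YFP-JAR1 transgene. The sources used here do not name its promoter. Each genotype was 1 line, and whether the 3 biological replicates of a group were single plants or pools is not stated, so that p-values cover only the scatter among the libraries at hand. Whole rosettes hold several cell types, and in such bulk RNA fewer cells of a type and less RNA per cell cannot be told apart.

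JAR1 joins jasmonic acid to isoleucine. The conjugate JA-Ile brings the receptor COI1 and a JAZ repressor together, the JAZ protein is degraded, and transcription factors of the MYC family are released onto genes for defence, secondary metabolism and jasmonate synthesis itself. Under drought the main hormone is abscisic acid (ABA), which closes stomata and switches on protective genes through receptors that inhibit clade A PP2C phosphatases, and jasmonate signalling is known to interact with it.

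The 12 libraries held 4735689 to 9506727 reads on genes, so that 3 reads corresponded to 0.316 to 0.633 CPM (reads scaled to a common library size). JAR1 (AT2G46370, TAIR10.1 chromosome 2, 19033586 to 19036683) was read at 21.1, 27.1 and 21.9 CPM in watered JAR1-OE, 37.5, 27.7 and 33.5 under drought, 6.51, 5.17 and 5.11 in watered jar1-11 and 2.93, 1.60 and 3.92 in droughted jar1-11. Every jar1-11 library lay below every JAR1-OE library, as the knockdown label says. WT, scaled in a fit of its own, had 22.9, 24.2 and 31.0 CPM with water and 33.8, 41.6 and 26.5 under drought, so the reads on JAR1 in the library group labelled JAR1-OE overlapped those of WT and do not show the overexpression. In jar1-11 JAR1 fell further under drought by 1.05 ± 0.28 on the log2 scale, and the difference between the responses was 1.55 ± 0.34 (adjusted p = 0.00291, edgeR's quasi-likelihood test with Benjamini-Hochberg adjustment, as for all adjusted p-values here; SE after ±). Levels below are CPM with TMM scaling. The transgene entry had 214, 88 and 307 reads in watered and 558, 26 and 147 in droughted JAR1-OE and 0 in the other libraries, so JAR1-OE drought 2 carried the least. This entry is 732 bases long, and whether transgene transcripts also gave reads on AT2G46370 was not tested.

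Leaf identity was checked with markers of other organs, and these were not even across the groups. The summed CPM of 11 flower identity genes was 21.6, 53.3 and 28.2 in droughted JAR1-OE, against 4.77 to 9.60 in watered JAR1-OE, 3.59 to 5.43 in watered jar1-11 and 9.07 to 12.5 in droughted jar1-11. Markers of stamen, tapetum and pollen (9 genes) summed to 14.9, 197 and 62.6 CPM in droughted JAR1-OE and to at most 2.4 CPM in the other 9 libraries. In droughted jar1-11 the flower genes AP1, LFY and SHP2 and 6 of the 9 stamen genes had no read. Root markers (4 genes) were highest in watered JAR1-OE, at 8.57 to 18 CPM, and no library of the other 3 groups passed 2.56 CPM. Of the flower markers 4 were tested, and 2 of these, PI and SEP3, had a more positive response in JAR1-OE (1 without JAR1-OE drought 2; PI missed the threshold in the fit of all 18 libraries, adjusted p = 0.148, and SEP3 in 8 alternatives, adjusted p 0.0728 to 0.169). Whether these organs' RNA has a part in the differences below was not tested.

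**Figure D1:**
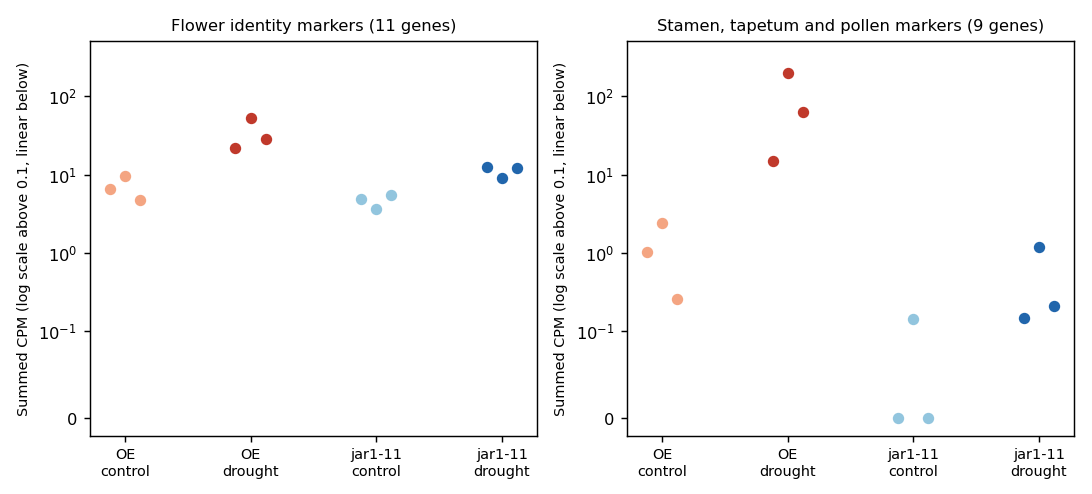
Summed CPM of flower identity genes (left) and of stamen, tapetum and pollen genes (right) in each of the 12 libraries (y axis, log scale above 0.1 and linear below; 1 point per library, 3 per group). The 3 droughted JAR1-OE libraries lie above the other 9 in both panels, with replicate 2 highest at 53.3 and 197 CPM.

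Drought moved more genes, and moved them further, in jar1-11 than in JAR1-OE. In jar1-11 10727 genes passed the test (61.2% of those tested), 5279 higher (30.1%) and 5448 lower (31.1%). In JAR1-OE 5734 genes passed (32.7%), 2798 higher (16.0%) and 2936 lower (16.8%). The median size of the response over all tested genes was 0.758 log2 units in jar1-11 and 0.414 in JAR1-OE.

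The difference between the responses passed the test for 6079 genes (34.7%), of which 3404 had the more positive response in JAR1-OE (19.4%) and 2675 the more negative (15.3%). With library totals alone as the scale the split was 4097 to 1982, and the median difference of all genes was 0.19 in place of 0.03. Among the 6079, 3462 responded in jar1-11 without passing the test in JAR1-OE, and 1585 responded in the same direction in both lines but further in jar1-11. The reverse cases were fewer, with 520 genes that passed in JAR1-OE alone and 67 that moved the same way but further in JAR1-OE, and 131 passed in neither line. The remaining 314 genes, 5.17% of the called and 1.79% of the tested, responded in opposite directions.

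Of these opposite-sign genes, 201 rose in JAR1-OE and fell in jar1-11 (1.15% of tested genes) and 113 fell in JAR1-OE and rose in jar1-11 (0.645%). Their number depended on single libraries, with 135 to 246 in the first direction and 67 to 112 in the second when 1 library was left out (135 and 67 without JAR1-OE control 3, and 70 of the second direction without JAR1-OE control 1). Of the 201 and 113 genes, 75 and 21 passed in every such fit. With library totals as the scale the counts were 284 and 71. In the first set the median response was 0.80 in JAR1-OE and -1.15 in jar1-11, and in the second -0.70 and 0.71. Both responses reached 1 log2 unit in 57 and 21 genes. Control and drought libraries did not overlap in either line in 182 of the 201 and 97 of the 113. Among all tested genes this held for 34.4% in any direction and for 4.26% in opposite directions. Such separation follows largely from the choice, which was made on the same libraries. The tests that chose these genes are the ones printed beside them, so that they describe the choice. Just inside the threshold were SVP (0.36 in JAR1-OE, -0.76 in jar1-11) and ARFA1D (-0.32, 0.28), and just outside it UBP1B (0.42, -0.35) and EBF2 (-0.39, 0.92).

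**Figure D2:**
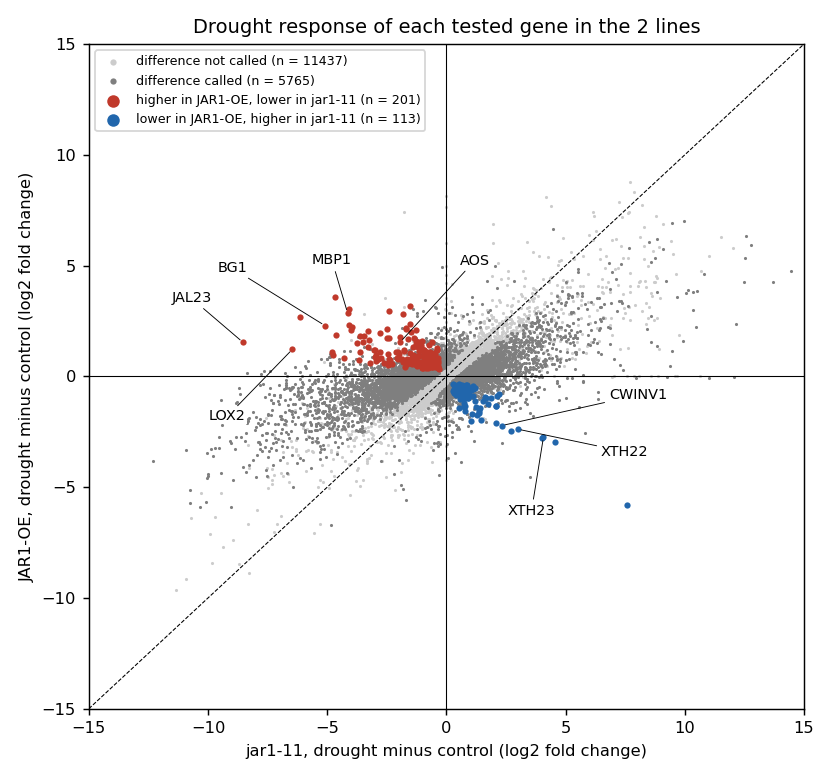
Log2 fold change of drought against control in jar1-11 (x axis) and JAR1-OE (y axis) for the tested genes, with opposite-sign genes in colour (201 red, 113 blue); the dashed line marks equal responses. Values of genes with a group at 0 reads, such as JAL23, are fitted and depend on the prior count. The cloud is flatter than the dashed line, and the coloured genes lie in the upper left and lower right quadrants.

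Of the genes that rose in JAR1-OE and fell in jar1-11, 3 are on the list of jasmonate synthesis. LOX2 (AT3G45140), the chloroplast lipoxygenase that starts the pathway, stood at 377, 659 and 418 CPM in watered JAR1-OE and 1452, 1076 and 864 under drought, and at 359, 315 and 400 in watered jar1-11 and 1.91, 4.13 and 6.61 under drought. The watered libraries of the lines lay in a common range, and the droughted ones were above it in JAR1-OE and far below it in jar1-11, with no overlap. LOX2 rose by 1.22 ± 0.27 in JAR1-OE, fell by 6.46 ± 0.36 in jar1-11, and the difference was 7.68 ± 0.45 (adjusted p = 1.7e-07).

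AOS (AT5G42650), the allene oxide synthase that acts next, had 146, 302 and 189 CPM in watered JAR1-OE and 819, 547 and 488 under drought, against 259, 249 and 294 in watered jar1-11 and 71.7, 65.3 and 72.1 under drought. The lines again overlapped with water and parted under drought (difference 3.48 ± 0.34, adjusted p = 3.75e-06). AOC2 (AT3G25770), an allene oxide cyclase, went from 173, 316 and 224 to 746, 744 and 575 CPM in JAR1-OE and from 256, 285 and 301 to 149, 82.4 and 147 CPM in jar1-11. Its difference was 2.69 ± 0.33, and LOX2, AOS and AOC2 kept their opposite signs, each past the threshold, in every alternative run.

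Over the 13 tested genes of jasmonate synthesis, 8 had a more positive response in JAR1-OE and 2 a more negative one (7 and 1 without JAR1-OE drought 2), with a median difference of 0.98 against 0.03 over all tested genes. In JAR1-OE 9 rose and none fell, and in jar1-11 5 rose and 5 fell. For this list and those below, the shares over all tested genes were 19.4% more positive and 15.3% more negative. In JAR1-OE 16.0% of all tested genes rose and 16.8% fell, and in jar1-11 30.1% rose and 31.1% fell. OPR3, which reduces the cyclised intermediate, rose by 1.35 in JAR1-OE and had a value of -0.04 in jar1-11. ACX1 (0.87 in JAR1-OE, 2.36 in jar1-11) and PED1 (0.35, 0.94), both of peroxisomal beta-oxidation, were the pair with the more negative difference.

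The JAZ repressors did not share a direction. JAZ9 rose from 101, 122 and 112 to 201, 178 and 128 CPM in JAR1-OE and fell from 46.8, 45.5 and 42.2 to 11.1, 18.4 and 16.5 CPM in jar1-11, with no overlap in either line. The rise in JAR1-OE was the weaker side of this (0.60 ± 0.18, adjusted p = 0.018) and missed the threshold in 5 alternatives (adjusted p 0.0511 to 0.204). JAZ7 had the reverse difference, since it rose in jar1-11 from 1.52, 3.02 and 2.96 to 14.1, 15.9 and 14.9 CPM and its JAR1-OE libraries, at 1.21 to 5.16 CPM, overlapped (difference -3.15 ± 0.52, adjusted p = 0.000337). Of 11 tested JAZ genes 4 had a more positive and 1 a more negative difference (2 and 1 without JAR1-OE drought 2). Their median difference was 0.28, and -0.01 with no filter on low counts. Among 10 tested genes of conjugation and turnover the counts were 2 (JAR1 and the methyltransferase JMT) and 1 (JAO3, a jasmonate oxidase, -2.86 ± 0.77), and 2 and 2 without JAR1-OE drought 2. JMT had 2 reads in droughted jar1-11, and its call was lost in 5 alternatives (adjusted p 0.0519 to 0.0711). The median of these 10 was -0.37, and 0.13 without jar1-11 drought 2.

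Downstream, the MYC branch had 5 of 11 tested genes with a more positive response in JAR1-OE and 1 with a more negative one (median difference 1.03). MYC4 (AT4G17880), a transcription factor released from JAZ proteins, had 36.7, 37.5 and 36.4 CPM in watered JAR1-OE and 48.3, 67.0 and 48.7 under drought, against 50.1, 63.2 and 58.6 in watered jar1-11 and 13.2, 9.60 and 12.8 under drought. The fall in jar1-11 was 2.28 ± 0.17, and the smaller rise in JAR1-OE, 0.57 ± 0.16, lost its call in 1 of the 20 alternatives (adjusted p = 0.0649). VSP2 (AT5G24770), a vegetative storage protein and a standard readout of this branch, rose from 138, 70.9 and 133 to 4939, 2824 and 2559 CPM in JAR1-OE. In jar1-11 it was near the floor in all libraries, at 1.12, 3.73 and 0.824 CPM with water and 1.91, 1.2 and 1.86 under drought, and no response was called (-0.19 ± 0.62). NAC019, a transcription factor of both jasmonate and ABA signalling, rose in both lines and rose less in JAR1-OE (difference -1.98 ± 0.35).

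The branch of the jasmonate response that is shared with ethylene had 2 more positive and 1 more negative of 8 tested genes, against 19.4% and 15.3% of all. Its median difference was 3.08, and -0.15 once the 2 genes without reads in some group take their bounds, so its sign depends on those genes. THI2.1, an antimicrobial thionin, was the opposite-sign gene here. It had 7.43, 8.74 and 7.87 CPM in watered and 76.6, 81.5 and 42.3 CPM in droughted JAR1-OE, whereas jar1-11 went from 26 reads over 3 libraries to 1 (ratio 21.8, exact 95% interval 3.58 to 893). THI2.1 overlaps AT1G72250 in the annotation, and the sources used here do not name the counting strand. ORA59, a transcription factor of this branch, fell in both lines and fell less in JAR1-OE (difference 3.78 ± 0.43).

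**Figure D3:**
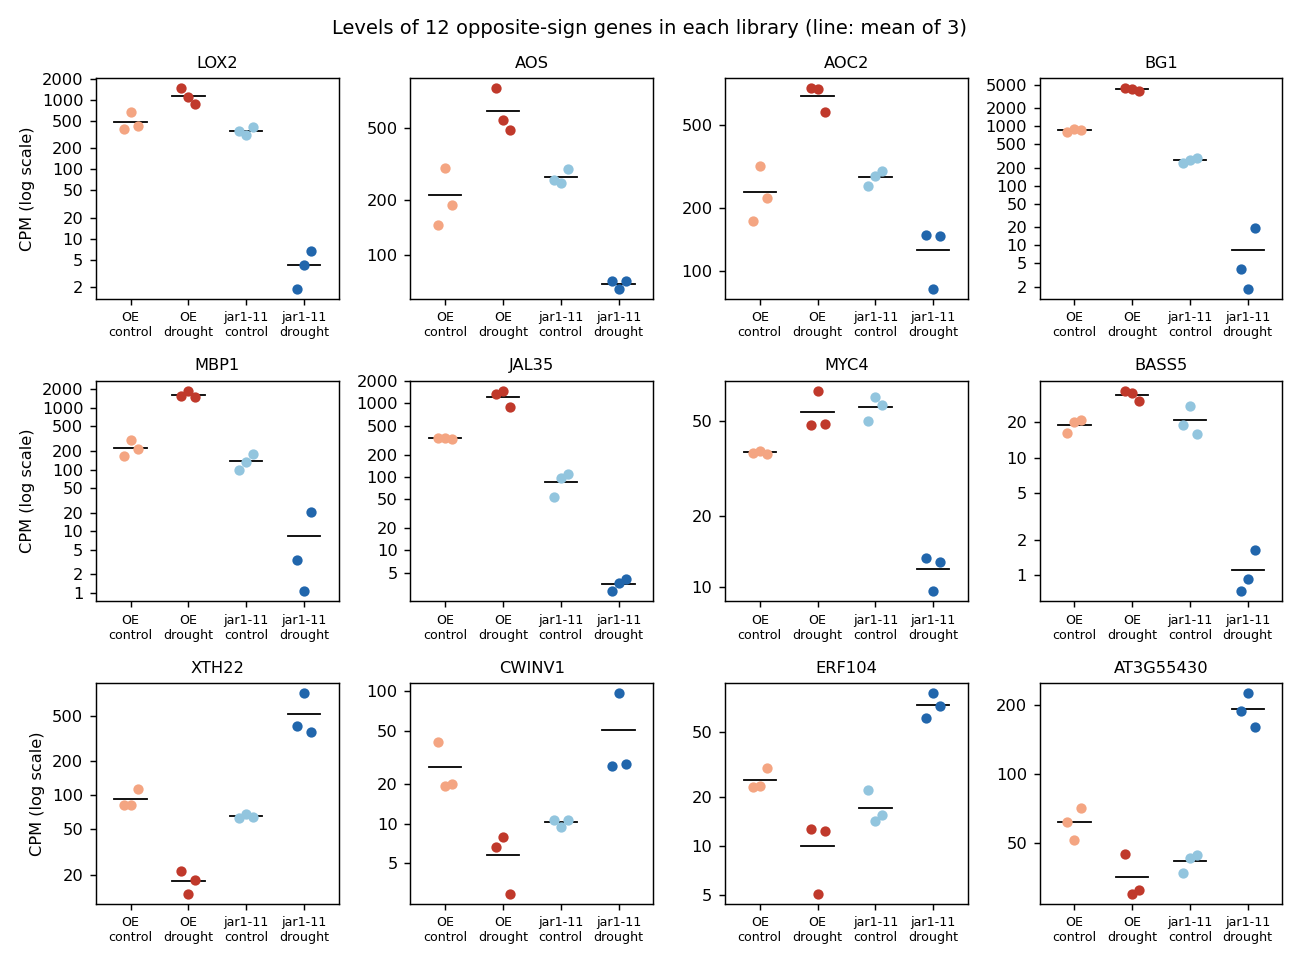
CPM (log y axis, own range per panel) of 12 opposite-sign genes in each library, by line and condition; points are libraries 1 to 3 from left to right and the black line is their mean. In the first 8 panels droughted JAR1-OE lies above its control and droughted jar1-11 below its own, and in the last 4 panels the order is the reverse.

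Among the other genes of this direction with the largest differences were some for lectins, a myrosinase partner and the ER body, a compartment of the endoplasmic reticulum that stores beta-glucosidases. Apart from BG1, which is on the list of ABA synthesis and catabolism, they belong to no list fixed for this work. The members of these families that did not move this way were not counted. BG1 (AT1G52400, also called BGLU18), a beta-glucosidase that can free ABA from its glucose ester, had 794, 889 and 880 CPM in watered JAR1-OE and 4303, 4294 and 3947 under drought, against 242, 270 and 294 in watered jar1-11 and 3.96, 1.87 and 19.6 under drought. All 4 groups were separate, and the difference was 7.38 ± 0.66 (adjusted p = 2.06e-06). AT1G52410, its neighbour on chromosome 1 and an ER body component (TSA1), moved from 206, 216 and 239 to 1222, 884 and 959 CPM in JAR1-OE and from 83.0, 106 and 111 to 5.42, 2.27 and 12.4 CPM in jar1-11.

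MBP1 (AT1G52040), a myrosinase-binding protein, went from 165, 301 and 213 to 1573, 1882 and 1475 CPM in JAR1-OE and from 98.0, 134 and 179 to 3.37, 1.07 and 20.9 CPM in jar1-11. Its difference was 7.0 ± 0.81 (adjusted p = 1.72e-05), and reads of the tandem neighbour F-ATMBP may not be fully separable from those of MBP1. JAL35 (AT3G16470), a jacalin-related lectin, had 340, 344 and 326 CPM in watered and 1331, 1479 and 880 CPM in droughted JAR1-OE. In jar1-11 it had 53.7, 95.5 and 110 CPM with water and 2.79, 3.6 and 4.13 under drought (difference 6.50 ± 0.39).

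JAL23, another jacalin-related lectin, had the most positive fitted difference among the named genes. Its 45, 51.8 and 40.5 CPM rose to 144, 162 and 93.6 in JAR1-OE, while jar1-11 went from 1.73, 6.75 and 12.5 CPM to 0 in all libraries, which is at least 39.1-fold lower with 3 reads over the group as the floor. With that floor the difference was 6.83 log2 units. AT3G28220, a TRAF-like protein, rose from 16.9, 18.3 and 20.6 to 254, 249 and 178 CPM in JAR1-OE and fell from 6.41, 8.18 and 6.75 to 0, 0 and 1.03 CPM in jar1-11. The last named genes of this direction were ASMT, an O-methyltransferase (26 reads to 1 in jar1-11, ratio 21.8, exact 95% interval 3.58 to 893), and AtGH9B8, an endoglucanase (77 reads to 2, ratio 32.3, interval 8.63 to 271). The rise of AtGH9B8 in JAR1-OE (1.1 ± 0.33) lost its call in 2 alternatives (adjusted p 0.0736 and 0.0773).

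Several of these genes lie close together on their chromosomes. There were 7 neighbouring pairs that both rose in JAR1-OE and fell in jar1-11, and 1 pair of the reverse kind. Pairs of neighbours were not counted among all tested genes, so no share stands beside these counts. The 7 include BCAT4 with ARC5, MEB1 with AT4G27870 and MPB2C with BIM1. JAL5, F-ATMBP and MBP1 lie on chromosome 1 between 19333088 and 19352791, BG1 and AT1G52410 lie at 19514989 to 19525685 of the same chromosome, and JAL34 and JAL35 overlap on chromosome 3 (5592491 to 5599224). The mean CPM of JAL5 went from 48.1 to 374 in JAR1-OE and from 36.3 to 7.41 in jar1-11, and that of JAL34 from 21.2 to 85.7 and from 7.37 to 2.56. MEB1, a membrane protein of ER bodies on chromosome 4, went from 6.74 to 21.5 and from 4.02 to 0.438 CPM. JAL5, JAL34 and MEB1 lie outside the rule for named genes and were picked for their position after their values were seen.

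Promoters of the opposite-sign genes were read for the G-box, the hexamer CACGTG that MYC factors and some bZIP factors of ABA signalling bind. The windows ran from 250 bases before to 50 bases after the annotated start of each gene in RefSeq's TAIR10.1 and were searched on both strands. A G-box stood in 33 of the 201 genes that rose in JAR1-OE and fell in jar1-11 (16.4%) and in 7 of the 113 of the reverse direction (6.19%). The share was 9.28% of 17422 promoters of tested genes and 7.68% of all 27443 protein-coding genes. Stretches of 250 bases up to the start are printed for the 4 named opposite-sign genes that hold the hexamer there (in capitals), 3 of the first direction and HHP2 of the second.
AT3G28220 (chr3:10523931-10524180, plus strand): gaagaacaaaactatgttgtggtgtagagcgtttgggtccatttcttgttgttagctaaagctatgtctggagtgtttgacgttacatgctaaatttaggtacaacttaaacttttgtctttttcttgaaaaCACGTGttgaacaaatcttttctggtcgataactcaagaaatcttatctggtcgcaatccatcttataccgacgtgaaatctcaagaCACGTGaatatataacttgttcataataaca
MBP1 (chr1:19352792-19353041, minus strand): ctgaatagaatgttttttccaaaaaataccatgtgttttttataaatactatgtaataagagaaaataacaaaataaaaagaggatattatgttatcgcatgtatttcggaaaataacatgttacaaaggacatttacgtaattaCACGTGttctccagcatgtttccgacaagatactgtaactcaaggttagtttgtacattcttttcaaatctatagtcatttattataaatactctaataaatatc
AOS (chr5:17099596-17099845, minus strand): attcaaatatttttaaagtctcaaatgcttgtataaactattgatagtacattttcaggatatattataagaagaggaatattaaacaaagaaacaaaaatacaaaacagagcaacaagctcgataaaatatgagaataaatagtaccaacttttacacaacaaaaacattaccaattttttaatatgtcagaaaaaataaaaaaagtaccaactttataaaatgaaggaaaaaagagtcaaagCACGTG
HHP2 (chr4:15022506-15022755, minus strand): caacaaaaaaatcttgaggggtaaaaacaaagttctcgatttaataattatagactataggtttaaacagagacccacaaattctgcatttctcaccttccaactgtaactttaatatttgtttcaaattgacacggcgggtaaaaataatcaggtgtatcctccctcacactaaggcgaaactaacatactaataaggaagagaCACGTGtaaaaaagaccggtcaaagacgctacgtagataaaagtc

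The capitals begin 118 and 31 bases before the start in AT3G28220, 105 bases before it in MBP1, 6 bases before it in AOS and 45 bases before it in HHP2. For other motifs the shares in the first set, the second set and all tested genes were 14.4%, 3.54% and 12.2% for the ABA-responsive element ACGTGNC, which can overlap a G-box, and 30.8%, 31.9% and 32.5% for the W-box (TTGACC or TTGACT). The evening element AAAATATCT was held by 6.47%, 2.65% and 3.12%, the GCC-box GCCGCC by 1.49%, 1.77% and 2.67%, and the site II element TGGGCC by 11.4%, 21.2% and 19.8%. These counts describe letters in a window and were not tested.

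Aliphatic glucosinolate genes, which make methionine-derived defence compounds under the control of MYB28 and MYB29 together with MYC factors, were the list with the most opposite-sign members. Of 16 tested genes 15 had a more positive response in JAR1-OE and none a more negative one (14 without JAR1-OE drought 2; median difference 2.97). In jar1-11 13 fell, against 31.1% of all tested genes. BASS5, a chloroplast transporter of chain-elongation intermediates, went from 16.3, 20.2 and 20.8 to 37.0, 35.6 and 30.4 CPM in JAR1-OE and from 18.9, 27.6 and 16.0 to 0.733, 0.933 and 1.65 CPM in jar1-11. CYP79F1, which starts formation of the core structure, went from 27.4, 41.3 and 42.2 to 74.9, 100 and 75.5 CPM and from 52.7, 49.7 and 39.7 to 5.13, 3.47 and 9.50 CPM. Watered plants of the lines overlapped for both genes and droughted plants did not.

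The other opposite-sign genes of this list were SOT17, a sulfotransferase of the last core step (0.76 ± 0.22 in JAR1-OE, -1.51 ± 0.23 in jar1-11), BCAT4, the first enzyme of methionine chain elongation (0.77 ± 0.28, -2.89 ± 0.31), and the regulator MYB29 (0.79 ± 0.24, -2.86 ± 0.30). Their rise in JAR1-OE was near the threshold and was lost in 1, 10 and 3 of the 20 alternatives, where the adjusted p reached 0.0733, 0.132 and 0.084. Indolic glucosinolate and camalexin genes had no common direction, with 4 more positive and 4 more negative of 12 (median difference -0.32, and 0.12 without jar1-11 drought 2). UGT74B1 (-1.83 ± 0.16) and CYP79B3 (-3.55 ± 0.40) fell in jar1-11 and were not called in JAR1-OE, while PAD3, the last enzyme of camalexin synthesis, rose in jar1-11 from 10.8, 9.33 and 14.0 to 164, 525 and 201 CPM and was not called in JAR1-OE (0.46 ± 0.41).

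Among 22 ABA and drought genes, 12 had a more negative response in JAR1-OE and 4 a more positive one (9 and 4 without JAR1-OE drought 2; median difference -1.08). Of the 22, 20 rose in JAR1-OE and 19 in jar1-11. RD26, a drought-induced NAC factor, went from 51.3, 54.7 and 49.9 to 367, 463 and 329 CPM in JAR1-OE and from 42.0, 44.4 and 45.5 to 1870, 1611 and 1424 CPM in jar1-11 (difference -2.32 ± 0.22). HB12, an ABA-induced homeodomain factor, had a difference of -2.76 ± 0.22.

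The cold- and ABA-regulated genes KIN2 and COR15B went the other way and were opposite-sign genes. KIN2 rose from 2337, 3732 and 2596 to 5391, 6693 and 6288 CPM in JAR1-OE and fell from 5366, 4106 and 5456 to 1276, 859 and 1283 CPM in jar1-11. COR15B rose by 0.58 ± 0.19 in JAR1-OE, a call lost in 5 alternatives (adjusted p 0.0597 to 0.118), and fell by 3.20 ± 0.21 in jar1-11. Their close copies KIN1 (3.37 in JAR1-OE, 5.03 in jar1-11) and COR15A (2.41, 2.47) rose in both lines, and reads common to such copies may have been left uncounted.

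Clade A PP2C phosphatases, which block ABA signalling and are themselves induced by it, had 6 of 9 tested genes with a more negative response in JAR1-OE and none with a more positive one (median difference -1.0). ABI2 rose from 13.6, 17.1 and 17.5 to 177, 208 and 216 CPM in JAR1-OE and from 20.7, 19.1 and 23.9 to 823, 890 and 722 CPM in jar1-11. HAI1 had a difference of -2.26 ± 0.52 and ABI1 of -1.0 ± 0.24. Of 8 tested PYR/PYL receptors of ABA 3 had a more positive response in JAR1-OE and none a more negative one (median difference 0.46), among them PYL4, which fell in both lines (by 5.01 ± 0.23 in JAR1-OE and by 6.43 ± 0.26 in jar1-11).

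In ABA synthesis and catabolism 3 of 10 tested genes responded more negatively in JAR1-OE and BG1, described above, more positively (median difference -0.93). AAO3, the oxidase of the last step, reached 10.9, 12.7 and 10.4 CPM in droughted JAR1-OE and 47.4, 48.4 and 51.4 CPM in droughted jar1-11 from 4.59 to 7.93 CPM in the watered libraries of both lines. NCED3, the rate-limiting dioxygenase, rose in both lines (2.18 in JAR1-OE, 1.68 in jar1-11) without a called difference (adjusted p = 0.286). Proline and raffinose genes had 7 of 11 with a more negative response in JAR1-OE (median -0.75), among them P5CS2, a proline synthesis enzyme, with a difference of -2.33 ± 0.23. Of 5 tested seed-type genes 2 did so (median -2.49), and the LEA protein gene LEA7 reached 216, 240 and 373 CPM in droughted JAR1-OE and 14400, 17400 and 10430 CPM in droughted jar1-11.

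Most tested genes of photosynthesis, water channels and wall loosening fell in jar1-11 and had a more positive response in JAR1-OE. Of 34 nuclear photosynthesis genes 31 had a more positive response in JAR1-OE and none a more negative one (median difference 1.87). In jar1-11 33 of the 34 fell, against 31.1% of all tested genes, and in JAR1-OE 18, against 16.8%. LHCB4.1, a light-harvesting protein of photosystem II, stood at 2725, 2395 and 3146 CPM in watered and 3254, 2375 and 2725 CPM in droughted JAR1-OE, which overlap, and fell from 1962, 1856 and 1769 to 342, 286 and 372 CPM in jar1-11. The RBCS and LHCB families hold near-identical copies, so counts of uniquely placed reads are uncertain there. Reads of chloroplast genes made up 2.01% to 3.81% of the droughted jar1-11 libraries and 4.81% to 6.27% of the other 9.

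Aquaporins had 12 more positive and 2 more negative of 16 (median difference 2.34), and alpha expansins, which loosen cell walls, 9 of 10 more positive (median 4.33, or 3.65 with groups at 0 at their bound). TIP1;2, a vacuolar aquaporin, fell from 4746, 4660 and 5832 to 1034, 842 and 730 CPM in JAR1-OE and from 2513, 2640 and 2467 to 19.1, 16.9 and 27.1 CPM in jar1-11. EXPA4 was not called in JAR1-OE (-0.52 ± 0.21) and fell by 5.38 ± 0.35 in jar1-11. No member of these lists was an opposite-sign gene, but the lists do not hold every gene of their kind. Outside them LHCB2.2, a light-harvesting protein, went from a mean of 437 to 697 CPM in JAR1-OE and from 365 to 47.4 CPM in jar1-11. The subunit gene ndhO (0.97 in JAR1-OE, -1.38 in jar1-11), the Calvin cycle regulator CP12-1 (0.46, -0.56) and the aquaporin NIP5-1 (0.82, -0.74) also had opposite signs. These 4 genes lie outside the rule for named genes and were chosen after their values were seen.

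The 113 genes of the reverse direction included enzymes that remodel the cell wall. XTH22 (AT5G57560), a xyloglucan endotransglucosylase also known as the touch gene TCH4, had 82.1, 82.1 and 114 CPM in watered JAR1-OE and 21.7, 13.6 and 17.8 under drought, against 63.0, 67.9 and 64.7 in watered jar1-11 and 406, 782 and 361 under drought. All 4 groups were separate, and the difference was -5.37 ± 0.38 (adjusted p = 3.47e-07). Its neighbour XTH25, which lies outside the rule for named genes, went from a mean of 25.4 to 8.57 CPM in JAR1-OE and from 15.3 to 26.5 CPM in jar1-11. Control and drought libraries of XTH25 were not separate in both lines. The XTH genes belong to no list fixed for this work, and XTH genes that did not move this way were not counted. XTH23 fell from 5.54, 1.03 and 3.74 to 0.776, 0.481 and 0.268 CPM in JAR1-OE, a low level whose call was lost in 6 alternatives (adjusted p 0.0529 to 0.22), and rose from 2.34, 1.87 and 2.96 to 18.0, 81.3 and 19.8 CPM in jar1-11.

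CWINV1 (AT3G13790), a cell-wall invertase that splits sucrose, had 41.3, 19.2 and 20 CPM in watered and 6.60, 7.85 and 2.94 CPM in droughted JAR1-OE. In jar1-11 it rose from 10.6, 9.47 and 10.7 to 27.4, 96.5 and 28.3 CPM, with jar1-11 drought 2 well above the others, and the difference was -4.54 ± 0.68 (adjusted p = 0.00015). ERF104 (AT5G61600), an ethylene response factor of defence, fell from 22.9, 23.1 and 30.2 to 12.7, 5.13 and 12.4 CPM in JAR1-OE and rose from 22.0, 14.2 and 15.5 to 60.7, 85.6 and 71.5 CPM in jar1-11. AT3G55430, a family 17 glycosyl hydrolase, fell from 61.8, 51.6 and 70.9 to 44.8, 30.0 and 31.2 CPM and rose from 37.0, 43.1 and 44.3 to 189, 225 and 160 CPM. XTH22, CWINV1, ERF104 and AT3G55430 kept both calls in every alternative run.

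The other named genes of this direction rested more on single libraries. GSTF7, a glutathione S-transferase, fell from 61.1, 48.8 and 56.8 to 29.9, 15.7 and 23.7 CPM in JAR1-OE and rose from 63.8, 31.7 and 49.9 to 83.4, 318 and 88.2 CPM in jar1-11, where replicate 2 stands apart. Its fall in JAR1-OE (-1.26 ± 0.43) lost its call in 8 alternatives (adjusted p 0.0502 to 0.13). The fit without jar1-11 drought 2 was not among them. The germin-like gene AT1G09560 (-0.87 ± 0.29 in JAR1-OE, 2.13 ± 0.29 in jar1-11) lost its call in JAR1-OE in 5 alternatives. So did AT5G14330 (25 reads to 3 in JAR1-OE, ratio 8.74, exact 95% interval 2.67 to 45.2), also in 5. AT1G25400 and the heptahelical protein gene HHP2 lost their call in jar1-11 in 1 alternative each, the fit without jar1-11 drought 2 (adjusted p = 0.0505 and 0.0594). For each of these genes the difference itself stayed past the threshold throughout, with a largest adjusted p of 0.0101 for XTH23.

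Salicylic acid genes had 5 of 17 with a more negative and 1 with a more positive response in JAR1-OE (median difference -0.55, and -0.000234 without jar1-11 drought 2). CBP60G, a regulator of salicylic acid synthesis, rose in jar1-11 from 28.7, 38.9 and 41.0 to 123, 302 and 117 CPM, with jar1-11 drought 2 apart from the others as also for ALD1 and SARD1, and in JAR1-OE the libraries overlapped (0.31 ± 0.32). Senescence genes had 6 of 15 with a more negative response and none with a more positive one (4 without JAR1-OE drought 2; median difference -1.03), among them PAO, an enzyme of chlorophyll breakdown (-1.69 ± 0.22), and WRKY6 (-3.19 ± 0.45). Antioxidant enzymes were mixed, 3 more positive and 4 more negative of 14 (median difference 0.29), against 19.4% and 15.3% of all tested genes. The iron superoxide dismutase gene FSD1 was an opposite-sign gene, rising from 318, 496 and 493 to 732, 712 and 753 CPM in JAR1-OE and falling from 445, 504 and 472 to 297, 204 and 259 CPM in jar1-11.

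Of 15 tested flavonoid and anthocyanin genes, all rose in JAR1-OE and 13 rose in jar1-11, and 7 of the 15 had a more positive response in JAR1-OE with none more negative (5 to 7 over the alternatives; median difference 1.18). MYB75 (PAP1), an activator of anthocyanin synthesis, rose from 1.90, 3.08 and 0.903 to 62.1, 62.2 and 53.9 CPM in JAR1-OE and from 4.37, 3.73 and 5.43 to 22.0, 14.9 and 18.4 CPM in jar1-11 (difference 2.93 ± 0.39). FLS1, flavonol synthase, rose in JAR1-OE by 1.95 ± 0.25 and was not called in jar1-11 (-0.03 ± 0.28).

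Heat shock genes had 2 of 9 (median difference -1.5) and clock genes 3 of 10 (median -0.29) with a more negative response in JAR1-OE. The share over all tested genes was 15.3%, and neither list had a more positive call. These calls were not stable, with 1 to 5 heat shock and 1 to 3 clock genes over the alternatives. HSP101 lost its call in 5 of the 20 alternatives (adjusted p 0.0526 to 0.0807), ELF4 in 9 (0.0532 to 0.0854) and CCA1 in 15 (0.0501 to 0.259). Guard cell and stomatal lineage genes had 3 more positive and 1 more negative of 11 (median difference 0.45), against 19.4% and 15.3% of all tested genes. The groups overlapped in the summed level of these genes (79.7 to 108 CPM over the 12 libraries). Cell division genes had 3 more positive of 9 (2 without JAR1-OE drought 2; median difference 0.37), including CYCA1;1 with 0 reads in droughted jar1-11. Another of the 3, MCM5, lost its call in 16 of the 20 alternatives (adjusted p 0.0526 to 0.114). Their sum was 48.0 to 66.9 CPM in watered and 28.7 to 43.4 CPM in droughted JAR1-OE, and 20.7 to 23.0 and 7.04 to 8.93 CPM in jar1-11. The single tested stamen marker and the 2 tested root markers had no called difference.

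**Figure D4:**
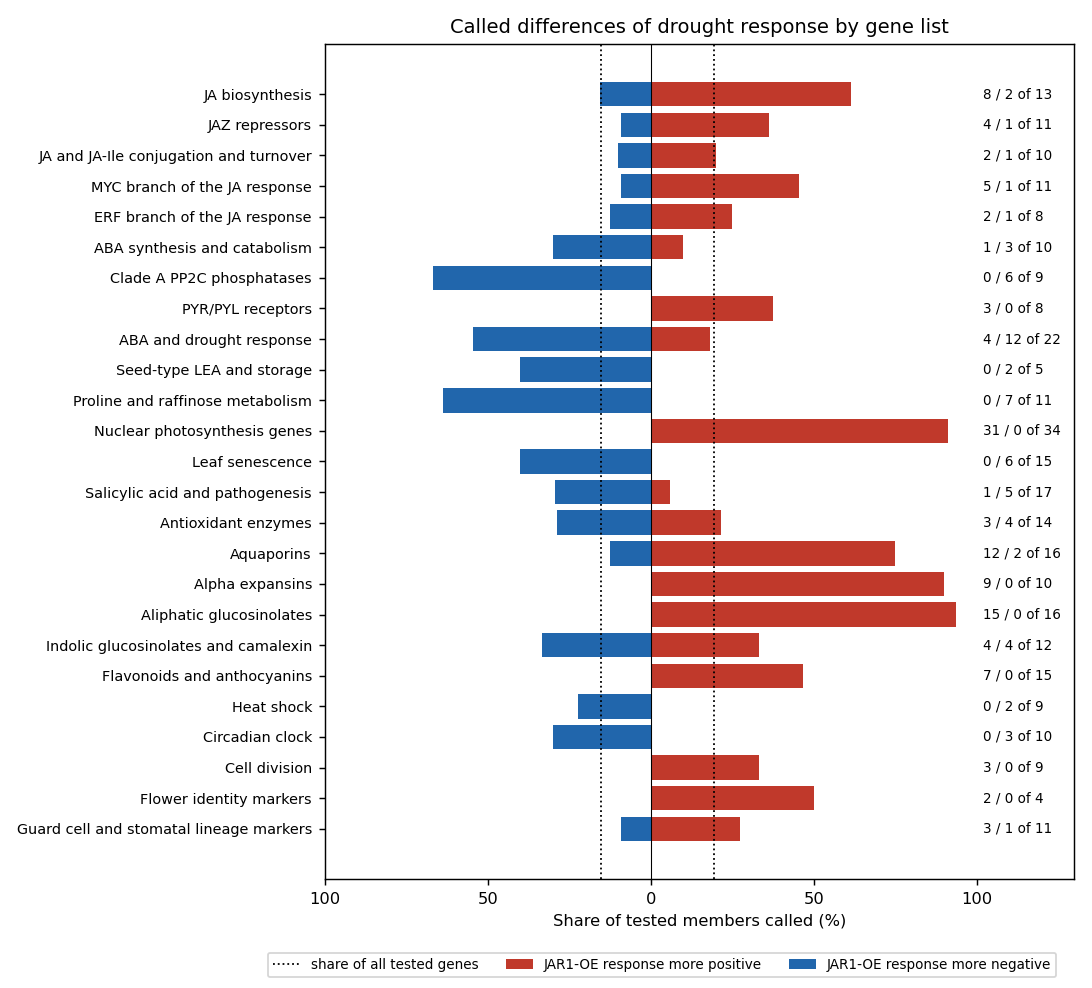
Share of tested members of each gene list (x axis, percent) whose drought response was called more positive (red, to the right) or more negative (blue, to the left) in JAR1-OE than in jar1-11; lists with at least 4 tested members are drawn, counts stand at the right, and dotted lines mark 19.4% and 15.3% of all tested genes. Photosynthesis, aliphatic glucosinolate, expansin and aquaporin genes extend far to the right, and PP2C, proline and raffinose and ABA response genes to the left.

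Among genes with at least 10 CPM in a group, the largest differences outside the opposite-sign set came from genes with few or no reads in a group. FLA2 and FLA12, fasciclin-like arabinogalactan proteins of the cell wall, fell from 101, 105 and 65.0 CPM and from 10.1, 20 and 7.91 CPM to 0 reads in jar1-11 (at least 593-fold and 79.9-fold lower) and had 9.06, 13.9 and 8.43 CPM and 7.25, 17.9 and 9.10 CPM in droughted JAR1-OE. AT5G50335 was at least 111-fold lower in droughted jar1-11 and fell by 1.59 ± 0.28 on the log2 scale in JAR1-OE. In the reverse direction RAP2-6, an ERF-type transcription factor, rose from 0 reads to 69.5, 116 and 54.7 CPM in jar1-11 (at least 639-fold) and from 1.02, 0.685 and 0.129 to 4.53, 2.56 and 2.01 CPM in JAR1-OE. AT5G05220 and AT5G35660 rose from 0 reads to 232, 289 and 182 CPM and 406, 411 and 395 CPM in jar1-11, and to at most 4.68 and 4.49 CPM in JAR1-OE. AtMT4a, a metallothionein, and DTX24, a transporter of the MATE family, reached 69.0 to 83.9 CPM and 34.7 to 38.1 CPM in droughted jar1-11 with at most 3 reads in each other group. Of these, AtMT4a and DTX24 lost the call without JAR1-OE control 3 (adjusted p = 1.0 for both), and AtMT4a and AT5G35660 in the fit of all 18 libraries (adjusted p = 0.164 and 0.096).

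WT plants, whose libraries had no part in choosing these genes, were fitted alone to see where their response lies. Of the 201 genes that rose in JAR1-OE and fell in jar1-11, 197 were tested in WT, 11 rose (5.58%, against 13.7% of all genes tested in WT) and 40 fell (20.3%, against 17.1%), and the median was -0.16. Of the 113 of the reverse direction 107 were tested, 2 rose (1.87%) and 6 fell (5.61%), with a median of 0.06. No WT response was called for 146 of the 197 and 99 of the 107, against 11290 of all 16316 genes tested in WT. The WT fit rests on 6 libraries, so a missing call does not show that WT had no response. Leaving out single WT libraries gave 5 to 14 (11 above; 5 without WT control 2) and 27 to 42 in the first set and 0 to 3 and 4 to 11 in the second (11 without WT control 1).

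Named genes differed in where WT lay. LOX2 fell in WT by 2.02 (adjusted p = 0.00875) and MYC4 by 1.25 (adjusted p = 0.00487), whereas BG1 and MBP1 rose by 1.38 and 1.43 on the log2 scale (adjusted p = 0.028 and 0.0132) and THI2.1 by 3.88 (adjusted p = 0.00597). BG1 had 225, 277 and 245 CPM in watered WT and 1101, 584 and 267 CPM under drought, which overlap. THI2.1 stood at 32.5, 3.62 and 8.26 CPM in the WT drought libraries. Both genes were highest in WT drought 1, the library with flower and stamen marker reads, whose part in this was not tested. KIN2 and CYP79F1 fell in WT (-1.24 and -2.39). AOS, AOC2, XTH22, CWINV1, ERF104 and AT3G55430 were not called in WT (values -0.49, 0.27, 0.60, -1.59, 0.47 and 0.70). WT drought 1 carried 57.1 CPM of the flower markers and 115 CPM of the stamen markers, against at most 10.1 and 1.29 in the other 5 WT libraries.

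**Figure D5:**
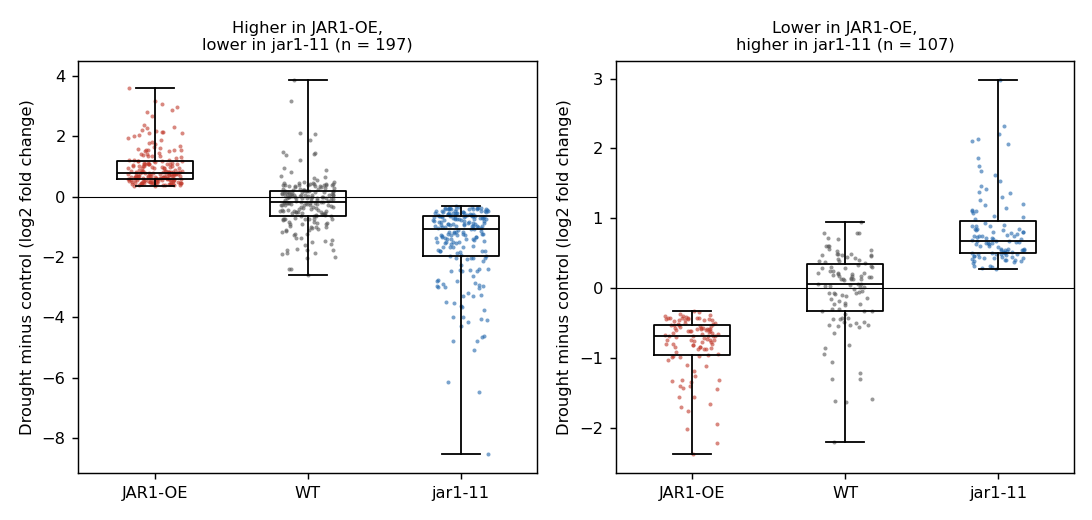
Log2 fold change of drought against control in JAR1-OE, WT and jar1-11 for opposite-sign genes that were tested in WT (left 197, right 107); points are genes, boxes give the quartiles and median and whiskers the full range. JAR1-OE and jar1-11 lie on either side of 0 by the choice of the genes, and the WT boxes straddle 0 with medians of -0.16 and 0.06.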

How the data were processed

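The authors deposited counts, which per the file headers are unique reads per gene. Per the labels' protocols, whole-rosette RNA was made into QuantSeq 3' libraries and sequenced as single reads of 50 bases. The sources used here do not name aligner, counter, genome build or counting strand, so close copies and overlapping genes are uncertain. Files held 27655 genes and the YFP-JAR1 entry, which was kept out of totals and tests (at most 0.00726% of a library). RefSeq's TAIR10.1 matched 27445 gene identifiers and gave symbols, positions and promoters.

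Groups and replicate numbers came from the labels. The 12 libraries of JAR1-OE and jar1-11 were fitted together with TMM scaling and a mean for each of 4 groups (edgeR 4.0.16 under R 4.3.3), and filterByExpr left 17516 genes (10139 not tested). The quasi-likelihood F-test gave each line's drought response and their difference, with Benjamini-Hochberg adjustment over all tested genes and a threshold of 0.05. The biological coefficient of variation was 17.7%. An SE was taken as |log2 fold change| over the root of its F. The 6 WT libraries were fitted alone (16316 genes, biological coefficient of variation 22.9%).

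Totals of 4735689 to 9506727 reads put 3 reads at 0.316 to 0.633 CPM. Against a group at 0 reads, folds were bounded with 3 reads over the group. With 1 to 3 reads, ratios of group sums carry exact 95% intervals. Intervals and floors cover counting error only. No pair of replicates agreed within sampling noise (chi-square over its degrees of freedom 5.54 to 23.3).

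Named genes were JAR1, the 10 opposite-sign genes with the largest difference each way at 10 CPM or more in the highest group and no overlap, the 5 largest differences each way, up to 3 genes per list with at least 2 calls, and opposite-sign list members. The 27 lists of 349 genes (313 tested), the members and the tests were chosen with earlier results of these data known. Alternatives were RLE scaling, library totals, no filter, limma-voom (limma 3.58.1), DESeq2 1.42.0, all 18 libraries, a replicate block, no organelle genes and each library left out. List counts without JAR1-OE drought 2 were added after seeing the data. On simulated data with 100 genes changed 2-fold and 100 changed 4-fold, the fit recovered 25% and 89% of them. Of its 121 calls 5.79% were false. The simulated data held far fewer changed genes than the 6079 called here.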

Additional observations from a re-analysis of the deposited data

Results flagged for a closer look

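The responses of the lines were tested against each other, and each of the following passed that test. The counts were 6079 genes with a different response, 3404 of them more positive and 2675 more negative in JAR1-OE, with 201 and 113 genes of opposite sign. Among genes that rose in JAR1-OE and fell in jar1-11 the differences, on the log2 scale, were 10.07 for JAL23, 8.26 for AT3G28220, 7.68 for LOX2, 7.38 for BG1, 7.13 for THI2.1 and 7.0 for MBP1. They were 6.50 for JAL35, 6.37 for ASMT, 6.19 for AT1G52410 and 5.89 for AtGH9B8. The fitted value of JAL23 rests on a group at 0 reads and is 6.83 at its bound. Among genes of the reverse direction they were -7.53 for AT5G14330, -6.81 for XTH23, -5.37 for XTH22, -4.54 for CWINV1 and -3.38 for ERF104. They were -3.04 for AT1G25400, -3.01 for GSTF7, -3.01 for AT3G55430, -3.0 for AT1G09560 and -2.92 for HHP2.

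The YFP-JAR1 entry, which no comparison used, held reads in JAR1-OE where the libraries of the other lines had 0. There were 214, 88 and 307 reads in the control libraries and 558, 26 and 147 in the drought libraries.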

How the results depend on the processing

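In 1955 of 2020 recomputations over 101 named genes and 20 alternatives the difference kept its direction and its side of the threshold. In 65 it kept its direction but missed the threshold, and none reversed. All 101 genes had passed this test in the main fit, and many were picked by the size or p-value of their difference. The alternatives reuse the same libraries, so this agreement follows in part from the choice. The 201 and 113 opposite-sign genes were 189 and 129 with RLE scaling, 284 and 71 with library totals, 189 and 136 with DESeq2, 220 and 120 with limma-voom, 210 and 96 without the filter, 142 and 77 in the fit of all 18 libraries and 205 and 117 without organelle genes. Leaving out each library gave 135 to 246 and 67 to 112, with 5115 to 6066 genes in all for the difference (2983 to 3582 more positive, 2132 to 2502 more negative), 4567 to 6465 for JAR1-OE and 9662 to 10971 for jar1-11. It kept 75 of the 201 and 21 of the 113 genes in every case. In WT the first set had 5 to 14 risen and 27 to 42 fallen, the second 0 to 3 and 4 to 11. The cause of these moves was not tested. Replicate numbers did not pair the samples, since same-numbered libraries of different groups had correlations of their deviations of -0.135 to 0.122, with 2 of 18 pairs over 0.1. With the replicate block the difference was called for 5862 genes (3280 and 2582), with 185 and 105 opposite-sign genes. List counts without JAR1-OE drought 2 stayed within 1.5 times for 50 of 54 counts, and this alternative was chosen after seeing the data. Genes with few reads in a group, 13 of the 314, are limited by depth.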
